A study of Mus musculus with 9 samples.

Results

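The genes described here make NAD or decide whether an axon is kept when NAD runs short. They are the 3 enzymes that join NMN to an adenylyl group, Nmnat1, Nmnat2 and Nmnat3, the salvage enzyme Nampt, the NAD kinases Nadk and Nadk2, the NAD hydrolase Sarm1, the injury kinase Map3k12 and the stathmin Stmn2. All 9 genes were found by symbol among the 14351 genes measured in hypothalamic RNA. Nmnat2 was chosen by its measured CPM, the same KO against WT values given here, so its difference is described and not tested. The other 8 genes were picked for their place in the same pathway, and they were tested with the whole table.

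NAD is rebuilt from nicotinamide by Nampt, which makes nicotinamide mononucleotide (NMN), and by an NMNAT enzyme, which turns NMN into NAD. Nmnat1 works in the nucleus, Nmnat2 on the surface of the Golgi and of transported vesicles in neurons, and Nmnat3 is placed in mitochondria. Nmnat2 is a short-lived protein that must be carried into the axon, and when it is lost NMN builds up, NAD falls and SARM1 destroys the NAD that is left, which ends in axon degeneration. DLK, the product of Map3k12, signals axon injury through JNK and speeds the loss of both Nmnat2 and Stmn2 proteins.

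Hypothalami of 9 male mice fed normal chow were sequenced, with 1 library per mouse. The KO group had 5 mice (replicates 2, 4, 6, 8 and 10) with Clic1, a chloride intracellular channel gene, deleted in the whole body, and the WT group had 4 mice (replicates 1, 3, 9 and 11). The methods describe WT littermates as controls and a CD-1 background, whereas the sample labels give the strain C57b/6J, and the age at tissue collection was not given. The labels also contradict each other for replicate 10, which carries a WT title and WT as its treatment but a K in its description and in its column name. It was kept in the KO group, as the other K columns were, and the differences tested in the members, in the genes of the pathway lists described with an adjusted p and in Rgl1 are given with and without it. Values for single libraries are listed in the order of the replicates above. A treatment note in the labels names adipose tissue. All 9 listed hypothalamic genes, among them Pomc, Agrp and Hcrt, were measured, whereas 0 of the 5 adipocyte genes (Adipoq, Plin1, Lep, Cidec and Fabp4) were in the table, which holds only genes above the authors' minimum.

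Clic1 had 1.93, 1.32, 0.733, 1.25 and 1.43 normalized CPM (read counts scaled to a common library size) across the KO animals, against 5.52, 4.66, 5.3 and 3.58 CPM across the WT animals, without overlap. For Clic1, replicate 10 at 1.43 CPM lay inside the range of the other KO libraries, 0.733 to 1.93 CPM. In depth and in likeness to the other libraries, replicate 10 stood apart from the rest. Its depth, estimated from the steps between low CPM values, was about 20.8 M reads. The other KO libraries held 5.47 to 7.71 M and the WT libraries 7.28 to 11 M, so genes of few CPM rest on fewer reads in most KO libraries. The median Spearman correlation of replicate 10 with the remaining 8 libraries was 0.9743, below the lowest value of 0.9891 among their own pairs.

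The start of Nmnat2 is shown because it is the gene on which these results turn. Nmnat2 (ENSMUSG00000042751) lies on the plus strand of chr1:152954993-153119261 in GRCm38, and the antisense gene Gm28960 lies inside it. Whether counting used strand was not stated, so reads of overlapping genes on opposite strands cannot be told apart. The 142 bases just before this start, from the RefSeq promoter table of GRCm38.p6, are chr1:152954851-152954992. Capitals mark TGACG, the core of the cAMP response element TGACGTCA that CREB binds, searched on both strands.
Nmnat2: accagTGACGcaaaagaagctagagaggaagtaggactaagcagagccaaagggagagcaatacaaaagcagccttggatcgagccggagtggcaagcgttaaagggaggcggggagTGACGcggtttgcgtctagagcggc
The letters occur 2 times, both on the plus strand, at 137 and 25 bases before the start given above. Neither match continues into the full element TGACGTCA, which does not occur in this stretch. RefSeq places the start of Nmnat2 further on, at 152955101, so both matches lie further before that start. Of the first 142 bases of 32851 promoter windows, 7.87% held TGACG on either strand and 0.828% held it at least 2 times. These windows come from RefSeq, so their first 142 bases need not lie just before a gene's start. In the full 300-base windows, 20.8% held it, and among the other members with a window it was found in those of Sarm1 and Nampt and in 1 window of Map3k12, and not in those of Nmnat1, Nmnat3 or Nadk. These matches describe letters only.

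The other members lie apart from Nmnat2 and mostly from each other. On the plus strand are Nmnat3 at chr9:98287435-98420438, Nampt at chr12:32819545-32853349, Nadk at chr4:155562378-155591001, Nadk2 at chr15:9071260-9110891 and Stmn2 at chr3:8509360-8561606, all in GRCm38. On the minus strand are Nmnat1 at chr4:149467572-149485202, which overlaps Tmem274, Sarm1 at chr11:78472330-78497754 and Map3k12 at chr15:102497646-102517064. On their own strand, Nmnat3 overlaps the pseudogene Gm28530 and Nampt overlaps the noncoding gene Gdap10. The longest Nmnat1 transcript also shares near-identical stretches with Gm26909 (191 nt), Churc1 (186 nt) and Gm47551 (166 nt).

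Nmnat2 RNA was lower in each KO library than in each WT library. It had 193, 191, 202, 194 and 186 CPM across the KO animals, against 310, 335, 290 and 321 CPM across the WT animals. The KO values lay close together and well below the lowest WT value, with replicate 10, whose labels conflict, at the bottom of the KO range. The KO mean of 193 ± 5.95 CPM (SD, n = 5) was 38.5% below the WT mean of 314 ± 19 CPM (SD, n = 4). On the log2(CPM + 0.1) scale used throughout, the difference was -0.70 (standard error 0.06), and -0.69 (standard error 0.05) without replicate 10. These are the values for which Nmnat2 was chosen. Of all genes, 3.41% had KO and WT values that did not overlap (1.74% with KO lower), and 0.286% had an adjusted p under 0.05 (0.146% with KO lower, and 0.606% in either direction without replicate 10).

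**Figure D1:**
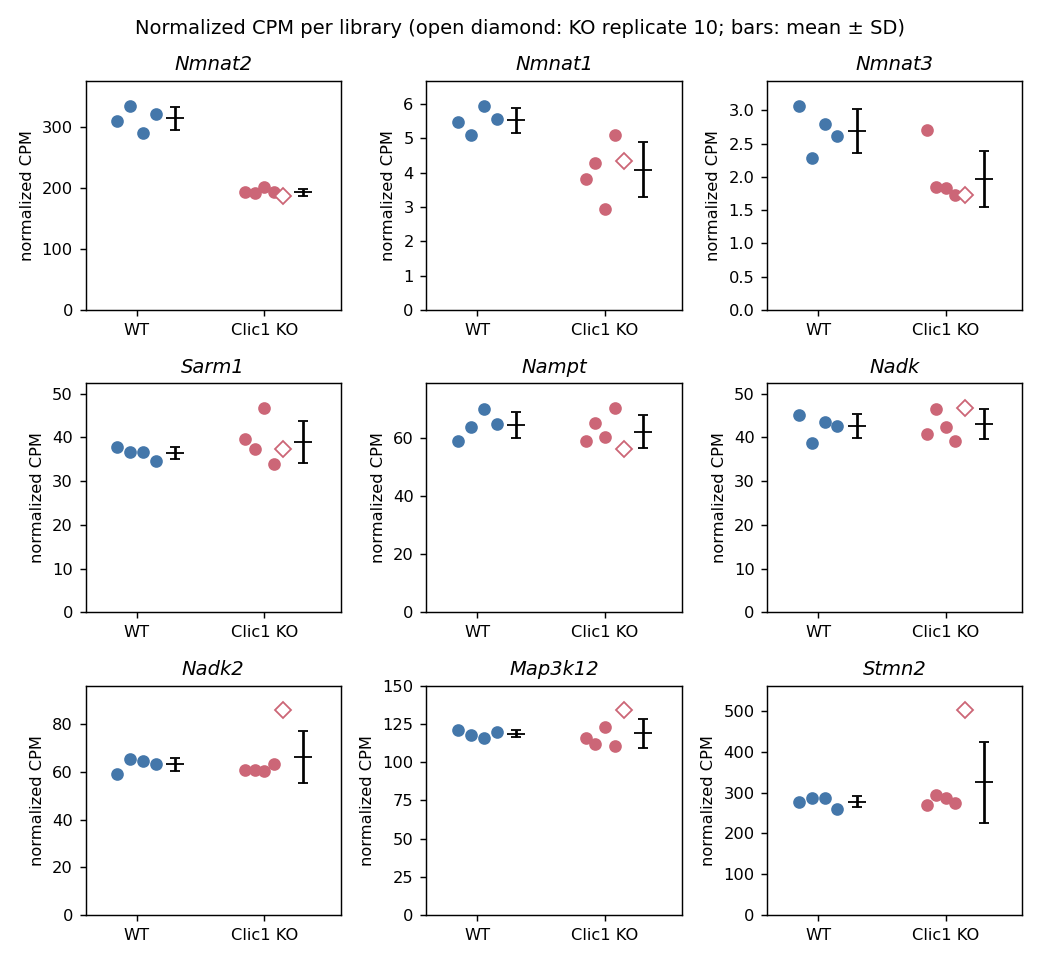
Normalized CPM (y axes, starting at 0) of the 9 genes in 4 WT and 5 Clic1 KO libraries. Each point is a mouse, the open diamond is KO replicate 10, and the bars are the mean ± SD. The 5 KO libraries sit at 186 to 202 CPM for Nmnat2 against 290 to 335 CPM in WT. For Nadk2 and Stmn2 replicate 10 lies far above all other libraries. Replicate 10 is also the highest library for Nadk and Map3k12 and the lowest for Nmnat2 and Nampt.

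Nmnat1, the nuclear enzyme, also had lower values in KO mice, but the difference did not pass the test across all genes. It was measured at 3.82, 4.28, 2.93, 5.08 and 4.33 CPM across the KO animals, against 5.46, 5.09, 5.95 and 5.57 CPM across the WT animals. The groups just failed to overlap, since KO replicate 8 at 5.08 CPM lay beside WT replicate 3 at 5.09 CPM. The log2 difference was -0.44, with a 95% confidence interval of -0.82 to -0.06, an unadjusted p of 0.0253 and an adjusted p of 0.698 from limma with Benjamini-Hochberg adjustment over all genes. The two-sided exact permutation test of the libraries gave p = 0.0159, the smallest that 5 against 4 allows. Of all genes, 6.5% had an unadjusted p under 0.05. Without replicate 10 the difference was -0.47 (adjusted p = 0.385 from limma).

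Nmnat3, which is placed in mitochondria, was the least abundant of the 3. Its values were 2.7, 1.85, 1.83, 1.72 and 1.73 CPM across the KO animals, against 3.07, 2.28, 2.8 and 2.62 CPM across the WT animals. KO replicate 2 lay inside the WT range and the other 4 KO libraries lay below it. The log2 difference was -0.45 (95% confidence interval -0.91 to 0.01, adjusted p = 0.771 from limma, exact permutation test p = 0.0476), and -0.41 without replicate 10 (adjusted p = 0.604 from limma). At these few CPM the intervals of Nmnat1 and Nmnat3 include both a difference near that of Nmnat2 and one close to 0. Summed, Nmnat1 and Nmnat3 had between 4.76 and 6.8 CPM among KO and between 7.37 and 8.75 CPM among WT libraries.

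Per kb of the longest coding transcript, Nmnat2 made up nearly all of the NMNAT RNA. In WT mice its level was 67.9 ± 4.11 CPM per kb (SD, n = 4), against 2.08 ± 0.132 for Nmnat1 and 1.24 ± 0.154 for Nmnat3. Its share of the 3 genes was 94.7% to 96.1% in WT and 93.9% to 95.7% in KO libraries, and these ranges overlap. The lengths used by the authors' counting are not given in the sources used here, so levels between genes are approximate.

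Among all 9 genes, Stmn2 stood first in WT mice at 134 ± 6.2 CPM per kb (SD, n = 4), followed by Nmnat2. Map3k12 came next at 22.8 ± 0.419 and Nadk2 at 16.9 ± 0.727 CPM per kb. Nampt at 14.2 ± 0.995 and Nadk at 13.5 ± 0.863 CPM per kb followed and had overlapping ranges, whereas all other neighbours in this order had ranges that did not overlap in WT libraries. Sarm1 had 7.47 ± 0.275 CPM per kb, and Nmnat1 and Nmnat3 came last.

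Nampt, which feeds NMN to the NMNAT enzymes, did not pass the test. It had 59.2, 65.2, 60.3, 70.4 and 56.2 CPM across the KO animals, against 59.1, 63.7, 70.1 and 65 CPM across the WT animals, and the groups overlapped over nearly their whole range. The log2 difference of -0.05 had a 95% confidence interval of -0.23 to 0.13 (adjusted p = 0.923 from limma), which corresponds to a change between -14.8% and 9.16%. Without replicate 10 it was -0.02 (adjusted p = 0.969 from limma). The ratio of Nampt to Nmnat2 CPM was between 0.299 and 0.362 among KO and between 0.19 and 0.242 among WT libraries. Nmnat2 sets this difference, so it is no separate result.

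Sarm1, whose enzyme cleaves NAD once NMN outweighs it, had 39.7, 37.4, 46.7, 33.8 and 37.4 CPM across the KO animals, against 37.8, 36.6, 36.6 and 34.6 CPM across the WT animals. The KO libraries spread on both sides of the WT libraries. The log2 difference was 0.09 (95% confidence interval -0.11 to 0.30, adjusted p = 0.88 from limma), and 0.10 without replicate 10 (adjusted p = 0.746 from limma). Nmnat2 RNA was 4.32 to 5.75 times that of Sarm1 in KO and 7.93 to 9.27 times in WT libraries, in CPM. The means of this ratio were 5 ± 0.512 (SD, n = 5) and 8.64 ± 0.675 (SD, n = 4), given as a description because Nmnat2 enters it.

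The NAD kinases turn NAD into NADP, Nadk in the cytosol and Nadk2 in mitochondria. Nadk ranged from 39.2 to 46.7 CPM in KO and from 38.8 to 45.1 CPM in WT libraries, with a log2 difference of 0.02 (95% confidence interval -0.16 to 0.19, adjusted p = 0.981 from limma), and -0.01 without replicate 10 (adjusted p = 0.975 from limma). The groups overlapped over nearly their whole range. Nadk2 had 61, 60.9, 60.4, 63.2 and 85.8 CPM across the KO animals, against 59.2, 65.3, 64.6 and 63.5 CPM across the WT animals. Only replicate 10 left the range of the other libraries, which lay together. The log2 difference of Nadk2 was 0.06 (95% confidence interval -0.17 to 0.28, adjusted p = 0.938 from limma) with replicate 10 and -0.04 (-0.16 to 0.08, adjusted p = 0.866 from limma) without it.

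Map3k12 and Stmn2 stand for the injury arm. Map3k12 had 116, 112, 123, 111 and 134 CPM across the KO animals, against 121, 118, 116 and 120 CPM across the WT animals, with a log2 difference of 0.01 (95% confidence interval -0.14 to 0.16, adjusted p = 0.991 from limma), and -0.04 without replicate 10 (adjusted p = 0.864 from limma). The WT values lay inside the KO range. Its longest transcript shares 1576 nt with Pcbp2, which lies on the other strand and overlaps its end, so reads there may have been divided between them. Stmn2, which encodes a regulator of axonal microtubules that is lost early after injury, had 270, 294, 288, 275 and 502 CPM across the KO animals, against 277, 288, 287 and 260 CPM across the WT animals. Replicate 10 stood far above the others, which overlapped. The log2 difference of Stmn2 was 0.19 (95% confidence interval -0.15 to 0.53, adjusted p = 0.862 from limma) with that library and 0.02 (-0.08 to 0.12, adjusted p = 0.933 from limma) without it.

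Besides Nmnat2, 0 of the 8 genes passed an adjusted p of 0.05 in limma, with or without replicate 10, and 1, Nmnat1, passed an unadjusted p of 0.05, against 0.286% and 6.5% of all genes. Their log2 differences were above 0 in 5 and below 0 in 3 genes, with a median of 0.01, and the median over all genes was 0.00. Nmnat1 alone, 1 of the 8, had groups that did not overlap, against 3.41% of all genes. Leaving replicate 10 out moved Stmn2 and Nadk2 most, as the plot of differences shows.

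**Figure D2:**
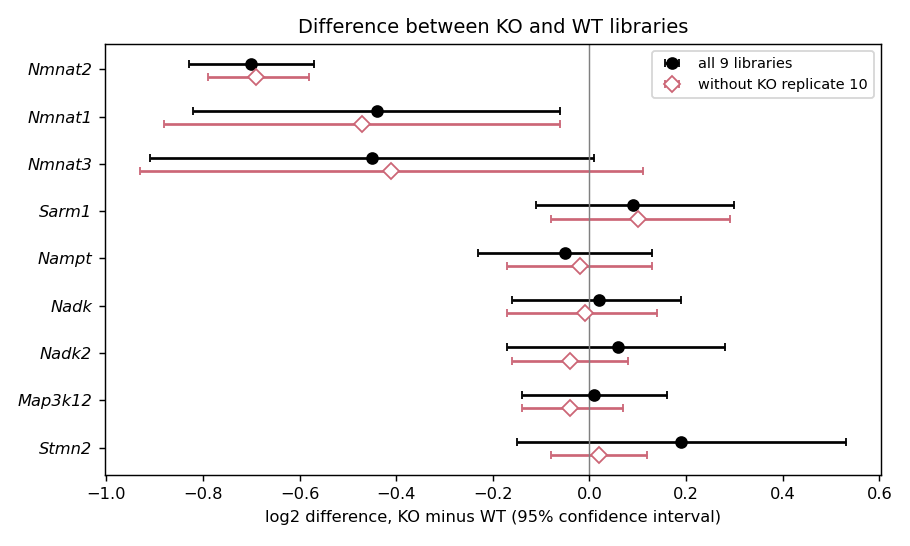
Log2 difference of KO minus WT (x axis) for the 9 genes, with 95% confidence intervals from limma, for all 9 libraries (filled circles) and without KO replicate 10 (open diamonds). The interval of Nmnat2, -0.83 to -0.57, is shown as a description. Nmnat1 and Nmnat3 have wide intervals. Those of Nmnat1 lie below 0, and those of Nmnat3 and of the other 6 genes include 0.

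The rest of the pathway was read from 6 lists holding 59 genes, of which 51 were in the table. None of the 51 passed the test (0 with an adjusted p under 0.05 in limma, smallest adjusted p = 0.462), 3 had an unadjusted p under 0.05 (6.5% of all genes did), and none passed without replicate 10 either. Their log2 differences were above 0 in 25 and below 0 in 26 genes, with a median of 0.00.

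Of 13 genes for other routes to NAD, 7 were measured, with a median log2 difference of -0.15. Tdo2, the first enzyme from tryptophan to NAD, was at a KO mean of 1.16 CPM and a WT mean of 1.8 CPM, a log2 difference of -0.60 (standard error 0.24, limma adjusted p = 0.716), and -0.55 without replicate 10 (adjusted p = 0.555). Tdo2 overlapped between the groups. Naprt, which starts the route from nicotinic acid, had -0.15 (standard error 0.19), and Afmid, a further enzyme of the tryptophan route, had 0.28 (standard error 0.24). Neither Naprt nor Afmid passed, and both lie at few CPM.

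Of 15 enzymes that consume NAD, 14 were measured, with log2 differences from -0.22 to 0.30 and a median of 0.06. The NAD hydrolase Cd38 had the lowest, -0.22 (standard error 0.12, adjusted p = 0.822 from limma), and -0.20 without replicate 10 (adjusted p = 0.618). The mitochondrial sirtuin Sirt4 had the highest, 0.30 (standard error 0.16, adjusted p = 0.807 from limma), and 0.17 without replicate 10 (adjusted p = 0.712). The tankyrase Tnks was at a KO mean of 254 CPM and a WT mean of 225 CPM, with 0.17 (standard error 0.08, adjusted p = 0.767 from limma). Without replicate 10 the log2 difference of Tnks was 0.23 (95% confidence interval 0.12 to 0.34, unadjusted p = 0.000603, adjusted p = 0.0773 from limma), the smallest adjusted p of the pathway lists in that fit and still over 0.05.

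The list of NAD and NMN breakdown, methylation, transport and redox genes had 8 of 9 members measured and a median log2 difference of -0.04. Pnp, a nucleoside phosphorylase that frees nicotinamide from its riboside, had a KO mean of 12.3 CPM and a WT mean of 9.44 CPM, without overlap of the groups. Its log2 difference was 0.37 (standard error 0.11, unadjusted p = 0.00562, limma adjusted p = 0.462), and 0.33 without replicate 10 (adjusted p = 0.294). Nudt12, which hydrolyses NADH, had -0.21 (standard error 0.13), and Slc25a51, the mitochondrial NAD carrier, had -0.05 (standard error 0.09). Nnt, the mitochondrial transhydrogenase that links NADH and NADPH, stood under 2 gene identifiers, with log2 differences of -0.05 (standard error 0.22) and -0.03 (standard error 0.12).

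Of the 12 genes of DLK and JNK injury signalling, all were measured, with a median log2 difference of -0.03. Map2k4, a kinase between DLK and JNK, had a KO mean of 236 CPM and a WT mean of 268 CPM, a log2 difference of -0.19 (standard error 0.08, unadjusted p = 0.0305, adjusted p = 0.716 from limma), with groups that did not overlap, and -0.13 without replicate 10 (adjusted p = 0.348). Ddit3, a stress-induced factor downstream of the pathway, had 0.24 (standard error 0.16, adjusted p = 0.843 from limma), and 0.14 without replicate 10 (adjusted p = 0.807). The neuronal JNK gene Mapk10 had -0.12 (standard error 0.09). Jun, the target of JNK, had a KO mean of 49.1 CPM and a WT mean of 50.6 CPM.

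The 5 genes for turnover and palmitoylation of Nmnat2 protein were all measured, with log2 differences from -0.18 to 0.09. Mycbp2, the ubiquitin ligase that removes Nmnat2, had a KO mean of 903 CPM and a WT mean of 884 CPM, a log2 difference of 0.03 (standard error 0.06, limma adjusted p = 0.934), and 0.02 without replicate 10 (adjusted p = 0.928). The partner genes Fbxo45 and Skp1a had -0.09 (standard error 0.09) and 0.09 (standard error 0.13). Zdhhc17 and Zdhhc13, palmitoyl transferases, had -0.03 (standard error 0.07) and -0.18 (standard error 0.18). None of the 5 passed.

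The 5 genes of the list of stathmins and their regulators had a median log2 difference of 0.14, and of 0.00 without replicate 10. Stmn3 had the highest, 0.27 (standard error 0.27, adjusted p = 0.88 from limma), and -0.03 without that library (adjusted p = 0.887). The summed CPM of the list was 1777 in replicate 10, against 896 to 965 in the other KO and 917 to 967 in the WT libraries. Stmn2 showed the same excess in replicate 10.

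**Figure D3:**
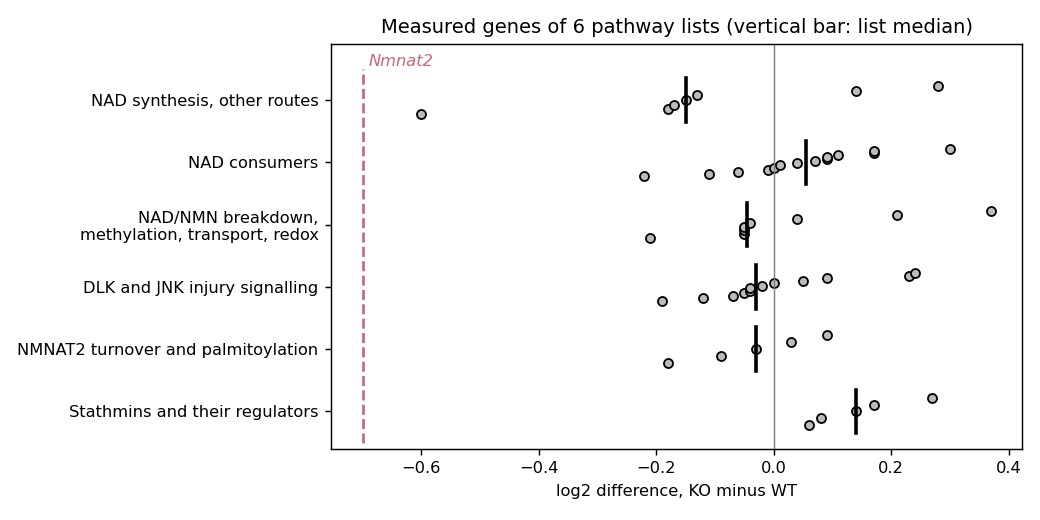
Log2 difference of KO minus WT (x axis) for the 51 measured genes of 6 lists (y axis), 1 point per gene, with a vertical bar at each list's median. The dashed line marks Nmnat2 at -0.70. All points lie between -0.60 and 0.37, and none passed the test.

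Bulk RNA cannot tell fewer cells of a type from less RNA per cell, so cell markers are set beside the difference of Nmnat2. The summed CPM of 10 neuron and axon markers was between 5744 and 6563 among KO and between 5979 and 6531 among WT libraries. Without replicate 10 the KO sums of 5744 to 5951 lay below all WT sums. Uchl1 is counted in these sums, and with Uchl1 taken out the KO and WT sums overlap, also without replicate 10. With all libraries none of the 10 passed the test, and without replicate 10 Uchl1, a ubiquitin hydrolase abundant in neurons, passed with lower values in KO mice. Uchl1 had 214, 234, 249, 204 and 461 CPM across the KO animals, against 410, 307, 508 and 402 CPM across the WT animals. Replicate 10 lay inside the WT range and the other 4 KO libraries lay below it. The log2 difference of Uchl1 was -0.63 (limma adjusted p = 0.597, standard error 0.22) with replicate 10 and -0.84 (standard error 0.11, adjusted p = 0.00102 from limma) without it. Of the other neuron markers, Nefl, a neurofilament chain of axons, came nearest to passing without replicate 10, at -0.24 (adjusted p = 0.103 from limma), and had -0.06 with it. The neurofilament chains Nefh and Nefm were not lower, with 0.36 and 0.07 with all libraries and 0.16 and 0.00 without replicate 10. Map2 and Tubb3 had 0.01 and 0.00 with all libraries, and -0.04 and -0.06 without replicate 10. The 5 endothelial markers summed to between 174 and 195 CPM among KO and between 158 and 166 CPM among WT libraries, without overlap (174 to 191 CPM in KO without replicate 10), and had a median log2 difference of 0.19. Sums of astrocyte markers (1531 to 2033 against 1555 to 1794 CPM), oligodendrocyte markers (2892 to 3474 against 3293 to 3995 CPM) and microglia markers (125 to 147 against 137 to 167 CPM) overlapped between KO and WT. The 9 hypothalamic genes summed to 608 to 794 CPM among KO (608 to 733 CPM without replicate 10) and 533 to 582 CPM among WT libraries. Of these 9, only Avp passed the test with all libraries, at 0.90 (adjusted p = 0.0027 from limma). With Avp taken out, the hypothalamic sums of KO and WT overlap. The part of Uchl1 and of cell makeup in the difference of Nmnat2 was not tested.

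The genes beside Nmnat2 on chromosome 1 were read as well. Positions were known for 14336 genes, and 19 measured genes lay within 1 Mb of Nmnat2. Of these, 2 passed the test (10.5%, against 0.286% of all genes, and 0.146% of all genes with KO lower), both with lower values in KO mice, and Rgl1 is described here. Over the 19 genes, 10 log2 differences were above and 9 below 0, with a median of 0.01.

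Rgl1, which encodes an exchange factor for Ral proteins, lies on the minus strand at chr1:152516760-152766351 and ends 189 kb before Nmnat2. Its CPM was 76, 77.5, 80, 80.4 and 88.7 across the KO animals, against 111, 110, 106 and 103 across the WT animals. The groups did not overlap, and replicate 10 was the KO library nearest to WT. The log2 difference of Rgl1 was -0.42 (standard error 0.06, adjusted p = 0.0184 from limma, exact permutation test p = 0.0159), and -0.45 (adjusted p = 0.000216 from limma) without replicate 10. When any other mouse was left out it had an adjusted p over 0.05, up to 0.115 in limma. Apobec4 lies inside Rgl1 on the other strand and had a KO mean of 1.37 CPM and a WT mean of 1.5 CPM.

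Across the 9 libraries, the genes of at least 5 CPM whose pattern was most like that of Nmnat2 were Mrs2, Gm14443, Gm10260, Stk19 and Nrsn1, with Pearson r of 0.977, 0.975, 0.963, 0.961 and 0.961 on the log2 scale. The comparison was made with 12071 other genes, whose values come from the same libraries. All 5 had lower means in KO mice, with log2 differences of -0.86, -2.26, -7.42, -0.85 and -0.62, and Gm10260 lay near 0 CPM in KO libraries. Nmnat2 was chosen for its gap between KO and WT, and that gap enters each r given here. The shared direction of these 5 genes is therefore no separate result. Without replicate 10 the r values were 0.992, 0.980, 0.965, 0.974 and 0.970 over 8 libraries. Of the members that reached 5 CPM, Nampt had the highest r with Nmnat2, 0.22, and Stmn2 the lowest, -0.40. Without replicate 10 this order changed, with Map3k12 highest at 0.44 and Sarm1 lowest at -0.35.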

How the data were processed

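Per the methods and the submitters' processing notes, reads were trimmed (Trimmomatic 0.38), aligned to GRCm38.p6 (STAR 2.5.1a) and assigned to genes by RSEM 1.3.0. The authors removed genes with low CPM, applied TMM scaling with edgeR and deposited a normalized CPM signal per library, whose sums differ slightly between libraries. The deposited comparison table also holds the authors' fold changes and p-values, of which none were used, and only its gene symbols were read. There was 1 column that matched no sample and was not used.

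Of the values under 2.5 CPM, 81% to 86.5% per library were whole reads within 0.03 reads, so counts could not be recovered and depth is approximate. Values were tested as log2(CPM + 0.1) with limma 3.58.1 in R 4.3.3 (intensity trend, group as the only term, Benjamini-Hochberg adjustment over 14351 genes, threshold 0.05), a fit tested on simulated data. Fold changes on this scale understate the change of low genes. The exact permutation tests, two-sided, used scipy 1.17.1. P-values set the KO against WT difference against the spread between mice, which limma adjusts with values from all genes. Gene positions and transcript lengths were taken from GENCODE M21. Near-identical transcripts (at least 95% identity over 30% of the shorter) were sought with blastn 2.17.0.

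The members and lists were chosen with earlier results of these data known. The genes named were the members, Clic1, in each pathway list those past the threshold or otherwise up to 3 with the smallest p, the 5 most like Nmnat2, and its neighbours within 1 Mb. Some genes that this rule names are not reported here. Marker genes, Nnt, Jun, Mycbp2, Zdhhc17 and other genes beyond this rule were added after their values were seen. Alternatives were other pseudocounts, a filter at a mean of 5 CPM, other scalings, no trend, sample weights, replicate 10 as WT and leaving out each mouse.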

Additional observations from a re-analysis of the deposited data

Results flagged for a closer look

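In 3 of the 24 groups of values examined, a library lay far from the others of its group by Dixon's criterion, where chance alone flags about 1 in 20 groups, or 1.2 here. KO replicate 10 was that library in 2 of them. Stmn2 stood at 502 CPM in KO replicate 10, whereas the remaining KO mice had 270 to 294 CPM. Nadk2 was 85.8 CPM in the same library, against 60.4 to 63.2 CPM. Nmnat3 was 2.7 CPM in KO replicate 2, with 1.72 to 1.85 CPM in the rest of its group. Replicate 10 is also the library with conflicting labels and the largest estimated depth. The part of either in these values was not tested.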

How the results depend on the processing

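With replicate 10 grouped as WT, the difference of Nmnat2 was -0.53, and 0 neighbours and 5 of all genes passed. Nmnat2 kept -0.74 to -0.67 as each mouse was left out. Over the same 9 fits the count of all genes passed ranged from 18 to 87 (main 41) and that of neighbours from 0 (without WT replicate 1, 3 or 9) to 2. A filter at 5 CPM gave 27 genes and 1 neighbour, sample weights gave 135 genes, and the fit without a trend gave 1 neighbour (Rgl1 then had an adjusted p of 0.0624 in limma). The filter also removed Nmnat1 and Nmnat3. The cause of the other changes was not tested.

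None of the 8 other members, nor any pathway list gene, passed in any alternative. Small differences changed sign. With replicate 10 as WT, Nampt had 0.02, Nadk -0.04, Nadk2 -0.13, Map3k12 -0.07 and Stmn2 -0.15, and with sample weights Nampt had 0.02, Nadk -0.02, Nadk2 -0.01 and Map3k12 -0.05. As each mouse was left out, Nadk ranged from -0.03 to 0.05, Nadk2 from -0.04 to 0.09 and Map3k12 from -0.04 to 0.03. Clic1 had an adjusted p over 0.05 without WT replicate 1, 3 or 9 (up to 0.0893 in limma). With few CPM, Nmnat1 and Nmnat3 have the least precise values. The windows and neighbour alternatives were chosen after seeing the data. No paired analysis was possible because the litter of each mouse is not given. Any likeness of littermates is therefore not modelled.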

Other observations

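After each group's mean was subtracted, genes among those that varied most like Nmnat2 among mice of the same group were Scn8a and Scn1a, sodium channels of the axon initial segment, Ank3, the scaffold that holds them there, and Tmem136. Their Pearson r with Nmnat2 over 9 libraries was 0.989, 0.969, 0.965 and 0.963, and without KO replicate 10 it was 0.988, 0.978, 0.961 and 0.959 over 8. The points share libraries and depth, and 12071 genes were compared. The KO and WT means of Scn8a (333 and 330 CPM), Scn1a (303 and 306 CPM) and Ank3 (1336 and 1349 CPM) were close, with log2 differences of 0.02, -0.01 and -0.01, whereas Nmnat2 differed by -0.70.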
